A study of Mus musculus with 9 samples.

Results

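CD4+ T cells that carried a high level of Hopx were compared with naive CD4+ T cells after both had been restimulated in culture. The comparison used 6 of the 9 libraries of the series, 3 called Hopx high and 3 called naive, and covered the 21998 autosomal gene rows among the 23171 gene rows of the deposited table. C57BL6 mice were the source of the cells, which were taken from spleen and lymph nodes. Their dendritic cells had been targeted 5 days before the first sort, per the labels, by chimeric antibodies bearing antigen and given into the peritoneum. The sorted T cells met antigen-presenting cells in culture for 12 h before a second sort, and their total RNA was depleted of ribosomal RNA and sequenced on an Ion platform. Both groups share strain, tissue, restimulation and second sort. The treatment label is the same for both, gives no genotype or age, and does not say how a Hopx high cell was recognised or from which animals the naive cells came. Nor does it tie replicates to separate animals, and the p-values cover the spread between these samples alone.

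Hopx has a homeodomain but no DNA binding of its own, and it has been studied in regulatory T cells that arise from conventional CD4+ T cells outside the thymus. A naive T cell rests outside the cell cycle and keeps expressing factors such as Klf2 that hold it in the recirculating state. Contact with antigen on a dendritic cell makes it divide and lets it take up T helper, follicular or regulatory gene programs, and inhibitory receptors then limit a second response. Entry into DNA replication is driven by E2F factors, mitotic genes are switched on later in the cycle, and replication-dependent histone genes are read during DNA synthesis.

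Summed coverage was 63.3, 86.5 and 289 megabases in naive replicates 1, 2 and 3 and 800, 364 and 203 megabases in Hopx high replicates 1, 2 and 3. Values are given as base pairs (bp) of coverage per megabase (Mb) of summed coverage in the library, and are not divided by gene length. At an assumed read length of 100 bases, a single read is worth 0.125 to 1.58 bp per Mb, so lower values and zeros were not resolved. Naive replicates 1 and 2 differed by about the sampling noise of such reads, with a median chi-square ratio of 1.05 against 7.29 to 18.3 for the other pairs within a group, and were averaged and counted as 1 sample. The naive group therefore has n = 2 and Hopx high n = 3, and an exact permutation test of a single gene cannot reach 0.05 in this design. The naive samples stood apart from each other, with r of 0.745 and 0.738 across genes between naive replicate 3 and naive replicates 1 and 2, while the Hopx high libraries had r of 0.918 to 0.961. Gas5, a non-coding host of small nucleolar RNAs, held 39.99%, 29.1% and 5.68% of the coverage in naive and 1.16%, 21.3% and 7.86% in Hopx high. Its difference did not pass (log2 difference -1.27, limma adjusted p = 0.796), and the counts below became 240 higher and 42 lower with that row left out of the totals.

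Genes were tested with limma on log2(bp per Mb + 1) if their mean over the 5 samples was at least 1 bp per Mb, which kept 10401 autosomal rows. A total of 288 rows were higher in Hopx high at an adjusted p of 0.05, which is 2.77% of those tested, and 29 were lower, which is 0.279%. The median log2 difference of all tested rows was 0.15. The libraries of both groups did not overlap for 286 of the called higher rows and 28 of the called lower rows. Over all tested rows, called or not, 14.4% were higher and 7.74% lower without overlap. Differences on this scale understate the change of weakly covered genes, and they were at least 1.99 among higher calls and at most -2.03 among lower calls. Among the higher calls 93 had a naive mean under 1 bp per Mb and thus entered the test through their Hopx high values, and 40 of these were listed at 0 in every naive library. Limma gave each gene the spread of the trend at its level alone, with no part from the gene itself, so the smallest p-values rest on that trend. The fit that also included the Hopx low libraries called 349 higher (3.34%) and 53 lower (0.508%), and kept 274 and 26 of the calls.

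The calls rest on few libraries. Without Hopx high replicate 1 the counts fell to 0 and 0, with a smallest adjusted p of 0.0735 and 492 higher and 255 lower at an unadjusted p under 0.05. Without naive replicate 3 they rose to 2265 and 229, in a fit with a single naive sample whose spread is assumed to be that of Hopx high. List counts and p-values given below without naive replicate 3, or without naive replicates 1 and 2, carry the same assumption. Quantile normalization gave 281 higher and 96 lower, a larger share of lower calls, and scaling by the median gene gave 204 and 35. The median log2 difference of all tested rows, 0.15, was 0.01 with scaling by the median gene, -0.07 with quantile normalization, -0.01 with Gas5 left out of the totals and -0.68 with the values as deposited. A list median has meaning only beside that shift. A list count has meaning only beside the shares called over all tested rows, 2.77% higher and 0.279% lower. All 317 called genes kept their direction under every alternative in which they were tested. They were chosen for large differences in these same libraries, so a change of direction was unlikely. The 3 Hopx high libraries carry Y-linked coverage and no Xist, while all naive libraries carry Xist and almost no Y-linked coverage. The groups thus also differ in sex-linked coverage, and a difference in sex and the group cannot be told apart in any result below. In bulk RNA, more cells of a kind and more RNA per cell cannot be told apart either.

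**Figure D1:**
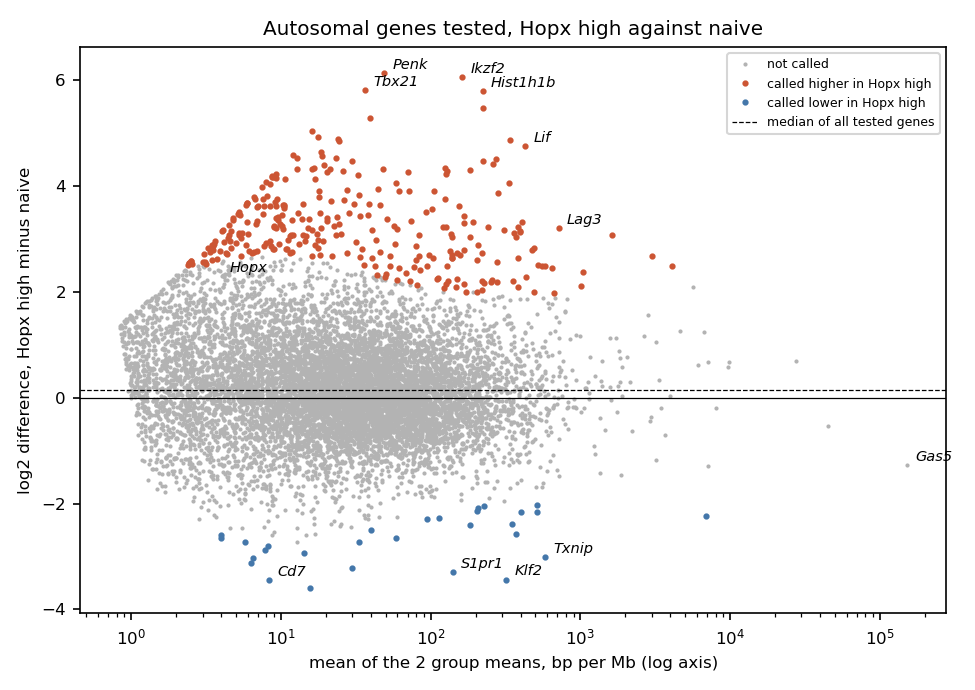
Log2 difference (Hopx high minus naive, y axis) against the mean of both group means in bp per Mb (x axis, log scale) for the 10401 autosomal genes tested. Red points are the 288 called higher and blue points the 29 called lower, and the dashed line is the median of 0.15. Called rises reach further from 0 than called falls, and Gas5 lies far to the right at -1.27 without passing.

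Hopx itself, on chromosome 5 at chr5:77086986-77115123 of GRCm38, was listed at 0, 0 and 1.64 bp per Mb in naive replicates 1, 2 and 3. The Hopx high libraries had 8.95, 7.79 and 4.89. Every Hopx high library lay above every naive library, but its log2 difference, 2.30 ± 0.82 (SE), missed the threshold (limma adjusted p = 0.113). It passed in 2 of 19 alternatives, over which the adjusted p ran from 0.000262 without naive replicate 3 to 1.00 with a replicate block in these groups alone. In these libraries the gene is covered by few reads, which limits what its level can show.

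The largest rise was in Penk, which encodes proenkephalin, the precursor of the enkephalin opioid peptides. Penk was listed at 0, 0 and 0.273 bp per Mb in naive and had 157, 105 and 29.2 in Hopx high (log2 difference 6.14 ± 0.84 (SE), limma adjusted p = 4.65e-10). Ikzf2, the transcription factor Helios, had 1.56, 1.16 and 8.41 in naive and 369, 339 and 247 in Hopx high (6.06 ± 0.68, limma adjusted p = 7.67e-15). Ikzf2 was the more evenly covered of this pair across Hopx high, and it passed in 18 of 20 alternatives, failing with no filter (adjusted p = 0.0867) and without Hopx high replicate 1 (0.0735). Over these alternatives its adjusted p ran from 1.29e-21, without naive replicate 3, to 0.0867.

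Both genes belong to a list of 25 autosomal genes known from regulatory T cells. Of its 20 tested members 8 were higher and 0 lower, where 2.77% of all tested genes were called higher. A positive difference was seen in 19 members, and the list median was 2.29, against 0.15 for all tested genes. Tnfrsf4, the costimulatory receptor OX40, had 33.3, 28.4 and 30.1 bp per Mb in naive and 599, 267 and 195 in Hopx high (log2 difference 3.33, limma adjusted p = 3.55e-05). Folr4, the folate receptor family member also called Izumo1r, was listed at 0, 5.36 and 14.0 in naive and had 78.5, 153 and 110 in Hopx high (3.90, limma adjusted p = 2.36e-05). For both genes each of the 3 Hopx high libraries lay above every naive library.

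The receptors Tnfrsf18, which is GITR (log2 difference 2.64, limma adjusted p = 0.00288), Il2rb, the beta chain of the IL-2 receptor (2.65, limma adjusted p = 0.00144), and Nrp1, neuropilin 1 (2.93, limma adjusted p = 0.0261), rose as well. Il2rb went from 89.2, 129 and 94.5 to 917, 607 and 478 bp per Mb. Several well-known members of the same list did not pass, with differences of 1.92 for Il2ra, the alpha chain of the IL-2 receptor, 2.23 for the inhibitory receptor Ctla4 and 1.20 for the Helios relative Ikzf4. Il10, Itgae, Entpd1, Klrg1 and Plagl1 lay below the filter. The list count was 9 in the fit to all 3 groups, 14 without naive replicate 3, 8 without naive replicates 1 and 2, 5 without Hopx high replicate 2, 3 without Hopx high replicate 3, and 0 without Hopx high replicate 1, where the median was still 1.98.

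**Figure D2:**
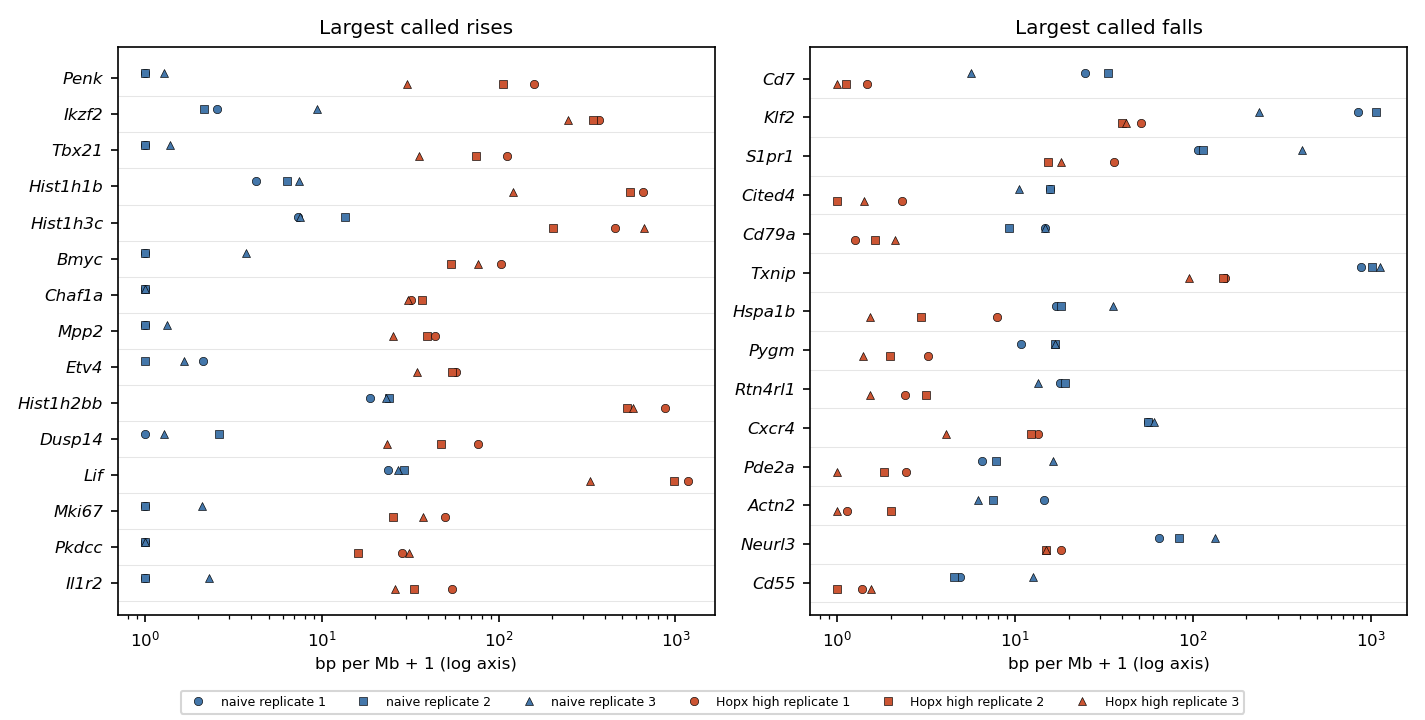
Values of the 15 largest called rises (left) and of 14 of the 15 largest falls (right) in each library, as bp per Mb plus 1 on a log axis. Blue marks are naive and red marks Hopx high libraries, and circles, squares and triangles are replicates 1, 2 and 3. In every row shown the red and blue marks do not overlap, which the choice of these genes required.

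Genes of T helper 1 cells included the next largest rise. Tbx21, the transcription factor T-bet, was listed at 0, 0 and 0.384 bp per Mb in naive and had 110, 73.1 and 34.5 in Hopx high (log2 difference 5.82 ± 0.85 (SE), limma adjusted p = 7.45e-09). Il12rb1, a chain shared by the IL-12 and IL-23 receptors, had 16.6, 13.2 and 8.65 in naive and 318, 240 and 183 in Hopx high (4.29 ± 0.66, limma adjusted p = 8.72e-08). The ranges of both genes were far apart, where the choice of Tbx21 had required no overlap. Naive replicate 3 was the lowest naive library for Il12rb1.

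Against 2.77% called higher over all tested genes, 5 of 17 tested T helper 1 genes were higher and 0 lower, with a list median of 1.09. Beside Tbx21 and Il12rb1 these were Il12rb2, the other chain of the IL-12 receptor (2.83, limma adjusted p = 0.0307), Eomes, a T-box factor related to T-bet (2.36, limma adjusted p = 0.0238), and Nkg7, a protein of cytotoxic granules. Nkg7 was at 0 in each naive library, with 29.1, 7.33 and 8.68 bp per Mb in Hopx high (limma adjusted p = 0.000727). The other members did not move as a group, with differences of 0.53 for the IL-12 signal transducer Stat4, -0.45 for the cytokine Tnf, 0.01 for perforin (Prf1) and 2.43 for granzyme B (Gzmb), none of which passed. Ifng lay below the filter, with a mean of 1.7 bp per Mb in Hopx high.

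Lists of other helper programs were short and had 1 or 2 calls each, where 2.77% of all tested genes were called higher. Of 7 tested T helper 2 genes 1 was higher, the cytokine Il13, which was listed at 0 in naive and had 26.6, 14.97 and 14.1 bp per Mb in Hopx high (limma adjusted p = 0.000103), and the list median was 0.81. Its lineage factor Gata3 had a difference of 0.40 and did not pass. Of 8 tested T helper 17 genes 2 were higher, with a list median of 1.66. These were Ahr, the aryl hydrocarbon receptor (2.90, limma adjusted p = 0.0307), and the chemokine receptor Ccr6, which was listed at 0 in naive and had 4.73, 5.72 and 4.23 in Hopx high (limma adjusted p = 0.0387).

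Of 11 tested T follicular helper genes 2 were higher, Cxcr5 and Cd200, where 2.77% of all tested genes were called higher. The list median was 1.51. Cxcr5, the receptor that guides T cells to B cell follicles, was listed at 0, 0 and 1.53 bp per Mb in naive and had 47.1, 26.8 and 24.0 in Hopx high (log2 difference 4.34, limma adjusted p = 8.84e-05). The factor Bcl6, which sets up that program, had a difference of -1.87 and did not pass. Without naive replicates 1 and 2 that list median was 0.26.

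Receptors that restrain T cells rose in part. Lag3, which binds MHC class II, had 154, 207 and 104 bp per Mb in naive and 1490, 1358 and 1030 in Hopx high (log2 difference 3.21 ± 0.62 (SE), limma adjusted p = 4.02e-05). Cd200, the ligand of an inhibitory receptor on myeloid cells, had 10.4, 20.8 and 51.1 in naive and 394, 312 and 199 in Hopx high (3.31 ± 0.64, limma adjusted p = 4.61e-05). For both genes the lowest Hopx high library was well above the highest naive library. Lag3 passed in 17 of 20 alternatives, and scaling by the median gene was among those where it failed (adjusted p = 0.0505). Over all of them its adjusted p ran from 3.71e-05 to 0.130.

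Of 13 tested coinhibitory genes 4 were higher and 0 lower, with a list median of 1.89, where 2.77% of all tested genes were called higher. Cd160 (3.12, limma adjusted p = 0.0102) and Tigit (2.97, limma adjusted p = 0.0247), both inhibitory receptors, were the others. Pdcd1, the receptor PD-1, had a difference of 2.23 and Btla, which binds a TNF receptor family member, of 1.89, and neither passed. The count was 0 without Hopx high replicate 1, 2 without Hopx high replicate 2, without Hopx high replicate 3 or with scaling by the median gene, and 9 without naive replicate 3. Of 15 tested costimulators 3 were higher, Tnfrsf4, Tnfrsf18 and Tnfsf11, and the list median was 1.05. Tnfsf11, the cytokine RANKL, was listed at 0, 1.04 and 27.1 in naive and had 60.6, 47.8 and 41.7 in Hopx high, so that naive replicate 3 lay far nearer to Hopx high than the other naive libraries (log2 difference 2.95, limma adjusted p = 0.0113).

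Genes that answer T cell receptor signals within hours showed no common direction. Of 33 tested early response genes 4 were higher and 0 lower, where 2.77% of all tested genes were called higher, and the list median was -0.18. Dusp4, a phosphatase of MAP kinases, had 27.0, 24.9 and 33.0 bp per Mb in naive and 270, 238 and 234 in Hopx high (log2 difference 3.03, limma adjusted p = 0.000285). Irf8, an interferon regulatory factor (2.89, limma adjusted p = 0.00047), Cd83, an activation marker (3.64, limma adjusted p = 0.000189), and Bhlhe40, a basic helix-loop-helix factor (2.21, limma adjusted p = 0.0157), were the others. The nuclear receptor Nr4a1 had a difference of -1.46, the zinc finger factor Egr1 of -1.89, the AP-1 subunit Fos of -0.76 and Myc of 0.07, and none of these passed. Of 22 tested components of T cell receptor signalling none was called. There the kinase Zap70 had a difference of -0.18. The phosphatase Ptprc, which is CD45, had 154, 147 and 1693 bp per Mb in naive and 541, 473 and 502 in Hopx high. Its naive samples lay on either side of Hopx high, so that its difference of -0.00 was 1.74 without naive replicate 3 and -1.74 without naive replicates 1 and 2.

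Shares called over all tested genes were 2.77% higher and 0.279% lower. IL-2 and STAT5 target genes had 2 higher of 15 tested and a median of 1.40. These were Il2rb and Csf2, the cytokine GM-CSF, which was listed at 0 in naive and had 20.5, 12.5 and 2.46 bp per Mb in Hopx high (limma adjusted p = 0.00331). Il2 itself, the T cell growth factor, had a difference of 0.61 and did not pass. Of 12 tested anergy genes 1 was higher, Folr4, and 1 was lower, Dgka, a kinase that removes diacylglycerol (-2.14, limma adjusted p = 0.0319). Dgka had 122, 158 and 549 in naive and 80.8, 61.1 and 49.0 in Hopx high, and passed in 8 of 20 alternatives. Its difference was -1.15 without naive replicate 3 and -3.12 without naive replicates 1 and 2. The anergy list had a median of -0.08, and of 0.08 with the values as deposited.

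Genes of the cell cycle rose in larger numbers. Over all tested genes 2.77% were called higher. Of 44 tested genes of the E2F and G1/S list 20 were higher and 0 lower, 43 had a positive difference and the list median was 2.34. Their summed coverage was 1017, 1241 and 2187 bp per Mb in naive and 5323, 4128 and 3302 in Hopx high, so the groups did not overlap, and naive replicate 3 was the highest naive library. E2f1, the transcription factor that opens the replication program, had 12.0, 16.2 and 17.7 in naive and 263, 157 and 284 in Hopx high (log2 difference 3.76 ± 0.66 (SE), limma adjusted p = 4.67e-06). Chaf1a, a subunit of the chromatin assembly factor that loads histones behind the replication fork, was listed at 0 in every naive library and had 30.8, 36.0 and 29.9 in Hopx high (limma adjusted p = 2.51e-06). E2f2, a close relative of E2f1 (4.29, limma adjusted p = 6.44e-05), and Rrm2, a subunit of ribonucleotide reductase (4.27, limma adjusted p = 0.000105), rose with them. Of the tested members 5 were listed at 0 in every naive library, and the median of the other 39 was 2.32. The list count was 0 without Hopx high replicate 1 and with the replicate block in these groups alone, 2 without Hopx high replicate 3, 6 without Hopx high replicate 2 and 31 without naive replicate 3, with medians from 2.06 to 2.90. Among the members that did not pass were Pcna, the sliding clamp of DNA polymerase (-0.06), and the cyclin Ccnd2 (0.48).

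Of 35 tested genes of G2 phase and mitosis 15 were higher and 0 lower, where 2.77% of all tested genes were called higher. Of the 35, 34 had a positive difference and the median was 2.21. The tested members include 6 listed at 0 in every naive library, 4 of them called higher. Such members could only have a positive difference. Of the other 29, 28 had a positive difference, and their median was 2.14. Mki67, the proliferation marker Ki-67, was listed at 0, 0 and 1.11 bp per Mb in naive and had 49.0, 24.1 and 36.5 in Hopx high (log2 difference 4.64 ± 0.86 (SE), limma adjusted p = 2.23e-05). Top2a, the topoisomerase that untangles replicated chromosomes, was listed at 0, 0 and 5.65 in naive and had 53.3, 52.5 and 64.6 in Hopx high (4.48 ± 0.83, limma adjusted p = 2.08e-05). Ube2c, the ubiquitin-conjugating enzyme of the anaphase-promoting complex, had at most 0.557 in naive and 25.3, 17.2 and 20.8 in Hopx high (4.13, limma adjusted p = 0.000209). Kif11, a kinesin of the mitotic spindle, had at most 0.394 in naive and 10.6, 12.9 and 17.4 in Hopx high (3.61, limma adjusted p = 0.00167). In the shallow naive replicates 1 and 2, 27 and 24 listed rows of this list had no coverage at all, against 8 in naive replicate 3 and 0, 0 and 1 in Hopx high. The depth of these naive libraries therefore moves with the result, and its part in it was not tested. The list had 0 higher calls without Hopx high replicate 1, without Hopx high replicate 3 and with the replicate block in these groups alone, and 3 without Hopx high replicate 2, with medians from 2.08 to 2.34. It had 14 without naive replicates 1 and 2, with a median of 1.86, and 30 without naive replicate 3.

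**Figure D3:**
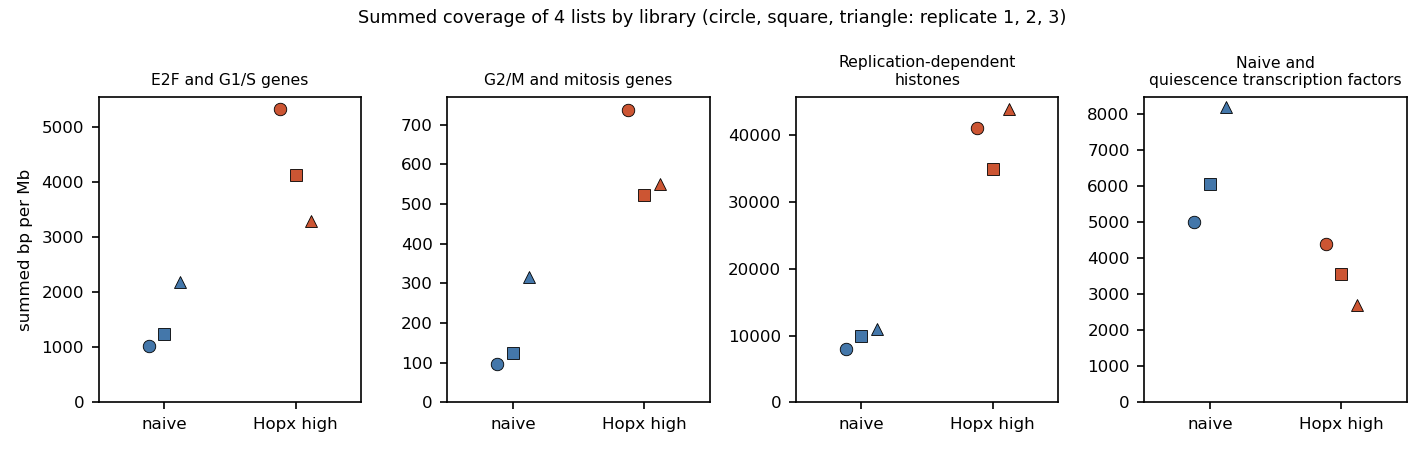
Summed coverage in bp per Mb (y axis, from 0) of 4 gene lists in each library, with naive in blue, Hopx high in red and replicates 1, 2 and 3 as circle, square and triangle. The E2F and G1/S, G2/M and histone sums are higher in every Hopx high library than in any naive library, while the sums of the naive and quiescence factors are lower (2713 to 4405 against 5007 to 8181).

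Genes read late in the cycle are known to carry the CHR element, a binding site of the DREAM and MuvB complexes, beside CCAAT boxes bound by NF-Y. Windows of 300 bases, from 250 bases before to 50 bases after the annotated start, were taken from RefSeq (GRCm38.p6) and searched on both strands for TTTGAA, TTTCCCGC, TTTGGCGC and CCAAT. The CHR letters TTTGAA stood in the windows of 10 of 12 called G2/M genes that have one, which is 83.3%, and of 23 of 28 tested members, called or not (82.1%). They stood in 11.7% of the windows of all tested autosomal genes and in 18.1% of all 27025 windows. CCAAT stood in 12 of 12 windows of called members and in 89.3% of the tested members, against 39.6% of the tested genes and 37.9% of all windows. Since the share was about the same in called and tested members, it describes the list and not the call. The 250 bases before the start of Top2a at chr11:99024190-99024439 (minus strand), Mki67 at chr7:135716380-135716629 (minus strand) and Kif11 at chr19:37376132-37376381 (plus strand) of GRCm38.p6 are shown 5′ to 3′. CHR letters and CCAAT boxes of either strand are in capitals. These genes were picked for display among called members whose 250 bases hold both motifs. Ube2c, which also holds both, is not shown. Kif11 holds a single copy of each motif close to the start, whereas Top2a and Mki67 hold several CCAAT boxes.
Top2a: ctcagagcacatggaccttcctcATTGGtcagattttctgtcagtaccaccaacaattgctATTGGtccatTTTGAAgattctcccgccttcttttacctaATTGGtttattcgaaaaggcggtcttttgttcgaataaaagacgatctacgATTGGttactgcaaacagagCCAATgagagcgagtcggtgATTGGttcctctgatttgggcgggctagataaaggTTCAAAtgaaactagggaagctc
Mki67: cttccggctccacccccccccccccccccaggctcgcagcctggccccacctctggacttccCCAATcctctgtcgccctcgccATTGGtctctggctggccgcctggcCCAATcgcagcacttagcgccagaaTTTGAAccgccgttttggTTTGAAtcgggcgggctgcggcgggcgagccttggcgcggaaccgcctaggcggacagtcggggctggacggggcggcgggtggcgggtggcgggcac
Kif11: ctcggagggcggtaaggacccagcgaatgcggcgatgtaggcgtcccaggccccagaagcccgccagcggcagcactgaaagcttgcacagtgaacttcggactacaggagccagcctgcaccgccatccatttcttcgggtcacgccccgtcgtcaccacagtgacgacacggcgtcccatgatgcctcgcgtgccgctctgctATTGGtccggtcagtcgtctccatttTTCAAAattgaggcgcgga

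For the G1/S list the letters TTTCCCGC or TTTGGCGC, forms of the E2F site, stood in 6 of 18 windows of called members (33.3%) and in 12 of 37 windows of tested members (32.4%). The share was 3.41% over all tested autosomal genes and 1.63% over all windows. Among the 183 called higher genes with a window, none of them a histone gene, 8.20% held it. A match is a description of the letters in the window and was not tested for binding. E2f3, another activating E2F factor, had 1.34, 0.982 and 8.71 bp per Mb in naive and 41.1, 50.1 and 41.2 in Hopx high (log2 difference 3.29, limma adjusted p = 0.00412). Cdc6, which helps to load the replicative helicase, was listed at 0, 0 and 3.15 in naive and had 24.6, 16.6 and 14.9 in Hopx high (3.24, limma adjusted p = 0.00958). These genes were picked for display because their windows hold the letters, at chr13:29986064-29986313 (minus strand) for E2f3 and chr11:98907901-98908150 (plus strand) for Cdc6 of GRCm38.p6, with the E2F letters of either strand in capitals. E2f3 has 2 windows, of which the first listed is shown.
E2f3: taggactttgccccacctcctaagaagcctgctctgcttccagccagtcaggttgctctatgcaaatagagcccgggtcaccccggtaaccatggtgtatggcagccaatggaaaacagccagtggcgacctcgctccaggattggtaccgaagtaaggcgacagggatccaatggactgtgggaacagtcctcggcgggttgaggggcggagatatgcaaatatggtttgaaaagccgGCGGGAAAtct
Cdc6: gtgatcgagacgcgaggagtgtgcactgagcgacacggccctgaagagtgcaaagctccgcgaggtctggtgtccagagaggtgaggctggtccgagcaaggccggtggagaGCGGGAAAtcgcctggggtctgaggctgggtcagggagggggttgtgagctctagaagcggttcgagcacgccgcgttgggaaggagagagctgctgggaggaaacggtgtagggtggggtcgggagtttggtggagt

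Replication-dependent histone genes, which lack introns and whose transcripts end in a stem loop in place of a poly(A) tail, gave the most calls of any list. Of 62 tested members 48 were higher and 0 lower, against 2.77% called higher over all tested genes. Of the 62, 61 had a positive difference and the median was 2.93. Rows named as histones held 0.799%, 0.993% and 1.11% of the coverage in naive and 4.12%, 3.50% and 4.39% in Hopx high. Hist1h1b, a linker histone gene, had 3.27, 5.38 and 6.42 bp per Mb in naive and 652, 550 and 119 in Hopx high (log2 difference 5.80 ± 0.67 (SE), limma adjusted p = 2.11e-14). Hist1h3c, an H3 gene, had 6.30, 12.6 and 6.52 in naive and 456, 202 and 664 in Hopx high (5.48 ± 0.65, limma adjusted p = 1.47e-13). Hist1h2bb, an H2B gene, had 17.6, 22.9 and 21.9 in naive and 873, 529 and 572 in Hopx high (4.86 ± 0.62, limma adjusted p = 1.35e-11). In each of these genes the lowest Hopx high library lay far above the highest naive library, where the choice of these genes had required no overlap.

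By family, 12 of 12 tested H3 genes were higher (median 3.89), as were 12 of 16 H2B genes (3.13), 13 of 16 H2A genes (2.93), 8 of 13 H4 genes (2.37) and 3 of 5 linker H1 genes (2.10). Summed H3 coverage was 170, 189 and 359 bp per Mb in naive and 4083, 1767 and 4829 in Hopx high. Many of these genes are nearly the same in sequence and the sources used here do not say how their shared coverage was assigned, so values of single copies are uncertain and the families are not independent of each other. Hist2h2be, which can also give a polyadenylated transcript, was the only tested member with a negative difference (-1.46) and did not pass. The histone count depended on the scaling and on single libraries. It was 26 with scaling by the median gene, 41 with quantile normalization, 24 with the replicate block in these groups alone, 41 without Hopx high replicate 2, 12 without Hopx high replicate 3 and 0 without Hopx high replicate 1, with a median of 2.80 in that last case.

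**Figure D4:**
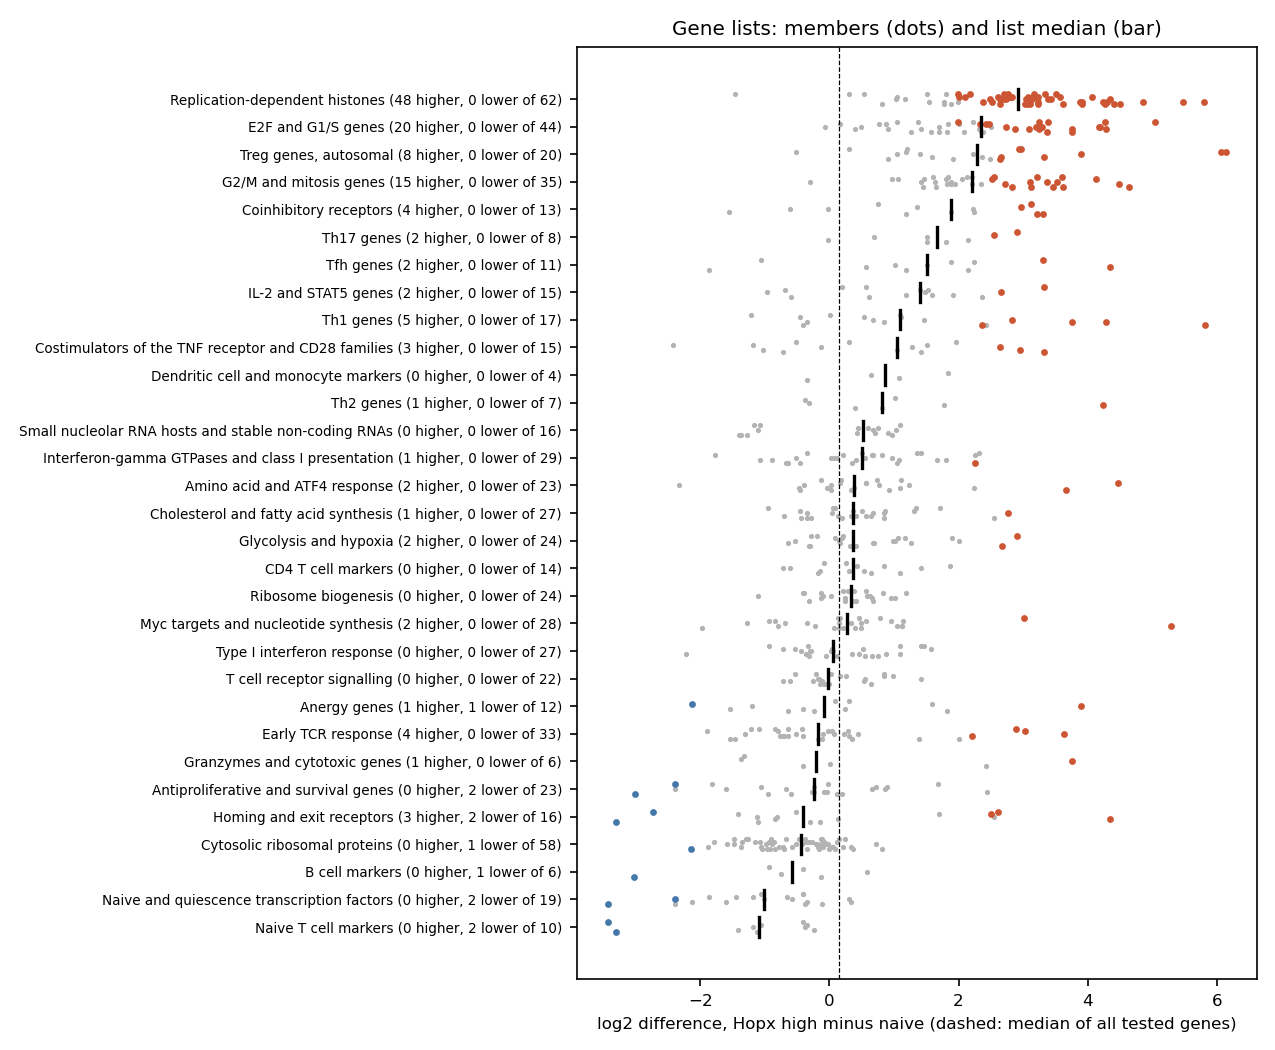
Log2 difference (x axis) of each tested member of 31 gene lists, 1 list per row, with at least 3 tested members each. Red dots were called higher, blue dots lower and grey dots not called, black bars are list medians and the dashed line is the median of all tested genes, 0.15. Histones, G1/S, G2/M and regulatory T cell genes lie furthest to the right, and naive T cell and quiescence genes furthest to the left.

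The falls included genes of resting and recirculating T cells. Klf2, a zinc finger factor that keeps T cells quiescent and drives S1pr1, had 849, 1074 and 236 bp per Mb in naive and 50.1, 38.7 and 41.3 in Hopx high (log2 difference -3.43 ± 0.64 (SE), limma adjusted p = 2.2e-05). S1pr1, the receptor by which T cells leave lymphoid organs, had 106, 113 and 408 in naive and 35.1, 14.3 and 17.2 in Hopx high (-3.30 ± 0.69, limma adjusted p = 0.000238). The naive samples stood apart for both genes in opposite directions, with naive replicate 3 the lowest for Klf2 and the highest for S1pr1. Neither overlapped Hopx high, which the choice of these genes required. Klf2 passed in 15 of 20 alternatives and failed among others with scaling by the median gene (adjusted p = 0.0522), and over all of them its adjusted p ran from 5.85e-09, without naive replicate 3, to 0.157.

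Of 19 tested naive and quiescence transcription factors 2 had a positive difference, and the list median was -1.01. Beside 0.279% called lower over all tested genes, 2 of the 19 were lower and 0 higher. Beside Klf2 this was Btg2, an antiproliferative factor, which had 554, 687 and 535 bp per Mb in naive and 159, 173 and 46.8 in Hopx high (log2 difference -2.39, limma adjusted p = 0.00652). Tcf7 and Lef1, HMG box factors of naive T cells, had differences of -1.06 and -1.19, and Foxo1, a forkhead factor of quiescence, of -0.59, and none passed. Values were lower without overlap for 9 of the 19, against 7.74% of all tested rows, and both include genes that did not pass. Of 10 naive T cell markers, which share Klf2 and others with that list, 2 were lower and all 10 differences were negative (median -1.09).

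Txnip, which binds thioredoxin and restrains glucose uptake, had 885, 1015 and 1126 bp per Mb in naive and 151, 146 and 93.6 in Hopx high (log2 difference -3.01 ± 0.61 (SE), limma adjusted p = 0.000136). Its values lay close together within naive and far below them in each Hopx high library, where the choice of this gene had required no overlap. Bcl2l11, the pro-apoptotic protein Bim, had 299, 317 and 306 in naive and 84.2, 52.2 and 43.5 in Hopx high (-2.39, limma adjusted p = 0.00992). These were the 2 lower genes among 23 tested antiproliferative and survival genes, of which none was higher and whose median was -0.23. The share called lower over all tested genes was 0.279%. The survival genes Bcl2 (0.89), Mcl1 (-0.09) and the IL-7 receptor gene Il7r (-0.23) did not pass.

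Homing and exit receptors moved in both directions, with 3 higher and 2 lower of 16 tested and a median of -0.41. The shares over all tested genes were 2.77% higher and 0.279% lower. Beside S1pr1 the lower gene was Cxcr4, the receptor for CXCL12, with 55.0, 54.8 and 59.6 bp per Mb in naive and 12.5, 11.2 and 3.10 in Hopx high (log2 difference -2.73, limma adjusted p = 0.0324). The higher genes were Cxcr5, Cd44, the hyaluronan receptor of activated T cells, with 8.34, 10.5 and 40.6 in naive and 175, 154 and 73.8 in Hopx high (2.61, limma adjusted p = 0.00738), and the chemokine receptor Ccr8 (2.50, limma adjusted p = 0.0297). Ccr7, a chemokine receptor that brings naive T cells into lymph nodes, had a difference of -1.42 and did not pass.

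Leaving out clone names, the largest fall was that of Cd7, a surface protein of T cells, with 23.7, 32.4 and 4.66 bp per Mb in naive and no more than 0.460 in Hopx high (log2 difference -3.44, limma adjusted p = 0.00112). Cd7 was several times lower in naive replicate 3 than in the other naive libraries. Cited4, a transcriptional co-activator (-3.12, limma adjusted p = 0.00611), Neurl3, an E3 ubiquitin ligase (-2.64, limma adjusted p = 0.0184), Pygm, the muscle form of glycogen phosphorylase (-2.88, limma adjusted p = 0.0227), and Pde2a, a phosphodiesterase (-2.72, limma adjusted p = 0.0281), fell too. The heat shock gene Hspa1b (-2.93, limma adjusted p = 0.0281), the complement regulator Cd55 (-2.58, limma adjusted p = 0.0302), the alpha-actinin gene Actn2 (-2.65, limma adjusted p = 0.0251) and the Nogo receptor relative Rtn4rl1 (-2.80, limma adjusted p = 0.0316) fell as well. Cd55 passed in 7 of 19 alternatives, Actn2 and Pde2a in 9 of 19 and Rtn4rl1 in 9 of 20. Of 20 alternatives Hspa1b passed in 10, Cd7 and Pygm in 11, Cited4 in 13 and Neurl3 in 14. Without Hopx high replicate 2, 6 of the 29 lower calls remained, and without Hopx high replicate 3 none did.

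Other genes were among the largest rises. Lif, the cytokine leukemia inhibitory factor, had 22.8, 28.0 and 26.0 bp per Mb in naive and 1170, 982 and 326 in Hopx high (log2 difference 4.76 ± 0.62 (SE), limma adjusted p = 2.87e-11). Bmyc, a relative of Myc, was listed at 0, 0 and 2.71 in naive and had 102, 52.6 and 75.8 in Hopx high (5.28 ± 0.82, limma adjusted p = 9.95e-08). Il1r2, the decoy receptor for IL-1, was listed at 0, 0 and 1.29 in naive and had 53.4, 32.1 and 24.8 in Hopx high (4.57, limma adjusted p = 2.89e-05). The naive values of Lif lay close together, while those of Bmyc and Il1r2 came from naive replicate 3 alone.

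Etv4, an ETS family transcription factor, was listed at 1.12, 0 and 0.661 in naive and had 56.5, 53.5 and 33.4 in Hopx high (4.88, limma adjusted p = 4.67e-06). Dusp14, a phosphatase that acts on MAP kinases (4.85, limma adjusted p = 6.51e-06), and Mpp2, a membrane scaffold protein (4.93, limma adjusted p = 4.67e-06), had at most 1.62 and 0.332 in naive. Pkdcc, a secreted tyrosine kinase, was listed at 0 in naive and had 27.3, 15.003 and 30.1 in Hopx high (limma adjusted p = 2.34e-05). All 15 of the largest rises kept their direction in every alternative, as all called genes did. All except Mki67, Pkdcc and Il1r2 were also called in every alternative other than no filter, leaving out Hopx high replicate 1 and, for some, the replicate block in these groups alone.

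Metabolic and biosynthetic lists had medians near that of all genes. At most 2 members of each were called higher, where 2.77% of all tested genes were called higher. Of 24 tested genes of glycolysis and hypoxia 2 were higher (median 0.36), the glycolytic enzyme Tpi1 (2.68, limma adjusted p = 0.00443) and the oxygen sensor Egln3 (2.90, limma adjusted p = 0.031). Of 23 amino acid and ATF4 response genes 2 were higher (median 0.37), Asns, asparagine synthetase (3.66, limma adjusted p = 0.00195), and Chac1, an enzyme that degrades glutathione. Chac1 had 19.5, 17.3 and 15.7 bp per Mb in naive and 457, 592 and 235 in Hopx high (4.47 ± 0.64 (SE), limma adjusted p = 2.74e-09), and it passed in 18 of 20 alternatives. Cholesterol and fatty acid synthesis had 1 higher of 27 (median 0.37), Scd2, a fatty acid desaturase (2.77, limma adjusted p = 0.00859). Myc targets and nucleotide synthesis had 2 higher of 28 (median 0.27), Bmyc and the Max partner Mxd3 (3.02, limma adjusted p = 0.0124).

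Ribosome biogenesis had none called of 24 (median 0.33), where Rrp9, a small nucleolar RNP protein, had a difference of 1.02 and Bop1, a pre-ribosome factor, of 0.21. Of 58 tested ribosomal protein genes 11 had a positive difference, the median was -0.45 and 1 was lower, Rpl12. The share called lower over all tested genes was 0.279%. Rpl12 had 1013, 1250 and 226 bp per Mb in naive and 83.6, 202 and 85.9 in Hopx high (log2 difference -2.15, limma adjusted p = 0.0226), and it lost the call under each of the 4 other scalings. Hosts of small nucleolar RNAs and stable non-coding RNAs had none called of 16 (median 0.52), and Rmrp, the RNA of RNase MRP, had a difference of 0.70.

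The interferon lists had calls near the share over all tested genes, 2.77% for higher calls. Of 27 tested type I interferon genes none was called and the median was 0.05, which became -0.05, -0.02 and -0.09 with scaling by the median gene, by quantiles and without Gas5. Ifi27l2a had a difference of 1.41 and the antiviral enzyme Oas3 of 0.03. Of 29 genes of interferon-gamma GTPases and class I presentation 1 was higher (median 0.50), Psmb9, an immunoproteasome subunit, with 45.4, 54.7 and 25.0 bp per Mb in naive and 265, 105 and 187 in Hopx high (log2 difference 2.26, limma adjusted p = 0.0223). Of 6 granzymes and cytotoxic genes 1 was higher, Nkg7, and the median was -0.20, or 0.74 with the values as deposited.

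Markers of CD4+ T cells and of other cells were compared between the groups. A lack of difference does not show what the cells are. All 14 CD4 T cell markers were tested, none was called and their sum was 2842 to 4220 bp per Mb in naive and 3351 to 6382 in Hopx high. Thy1, a surface protein of T cells, had a difference of 1.87 and did not pass (limma adjusted p = 0.0737). Cd8a was listed at 0 in all 6 libraries, and Cd8b1 had a difference of 0.11. Dendritic cell and monocyte markers had none called of 4 tested out of 16, and their sum ran from 22.0 to 63.4 in naive and from 46.1 to 167 in Hopx high. Itgax, Clec9a, Xcr1 and Siglech were listed at 0 in all 6 libraries, but other members had coverage. Of the 16 rows, 12, 11 and 7 were at 0 in naive replicates 1, 2 and 3. In Hopx high replicates 1, 2 and 3 these were 5, 7 and 8. Of the 4 tested members 3 had a positive difference (median 0.86). Cst3, a cysteine protease inhibitor also made by other cells, had a difference of 1.08 and the macrophage pore protein Mpeg1 of 1.83. Carryover of these cells was not tested. Of 6 tested B cell markers 1 was lower, Cd79a, the signalling chain of the B cell receptor, where 0.279% of all tested genes were called lower. Cd79a had 13.7, 8.18 and 13.8 in naive and 0.261, 0.635 and 1.10 in Hopx high (-3.03, limma adjusted p = 0.0102). The B cell list sum was 30.3 to 82.0 in naive and 23.9 to 58.4 in Hopx high, and its part in other results was not tested. The single tested NK cell marker, Prf1, had a difference of 0.01, and no erythroid or platelet marker was tested.

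The unlike naive samples were set against Hopx high one at a time as a description. Against the mean of naive replicates 1 and 2 the called higher genes had a median log2 difference of 3.60, and against naive replicate 3 of 2.76. For the called lower genes the medians were -2.67 and -2.79. All 317 called genes had the same sign against both, which their choice by the difference from both together made likely. The rise was weakest against naive replicate 3 for Tbc1d4, a Rab GTPase-activating protein, at 0.18, where naive had 1.28, 2.05 and 65.0 bp per Mb and Hopx high 73.1, 89.1 and 61.1, and for Cbx5, heterochromatin protein 1 alpha, at 0.23. Among called genes 52 had naive samples more than 4-fold apart. Tbc1d4, the small RNA gene Vaultrc5 and the p53-induced gene Trp53inp1 were the 3 called genes whose groups overlapped. They were named after their values were seen, and none passed in the fit to all 3 groups.

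**Figure D5:**
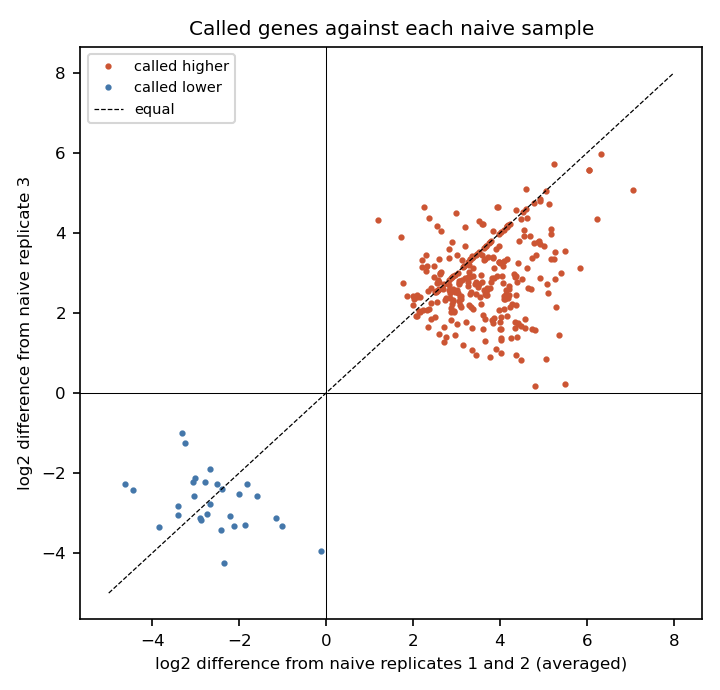
Log2 difference of each called gene from naive replicates 1 and 2, averaged (x axis), and from naive replicate 3 (y axis), with genes called higher in red and lower in blue. Both axes are 0 or beyond on the same side for all 317 genes, and most red points lie under the dashed line of equality, so that rises were smaller against naive replicate 3.

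The Hopx high libraries also differed among themselves. Hopx high replicate 1, the most deeply covered, had the highest of the 3 values for 157 of the 288 higher genes, replicate 3 for 87 and replicate 2 for 44. Lif, for example, had 1170 in replicate 1 and 326 in replicate 3, and Hist1h1b had 652 and 119. For Hist1h3c the order was another, with 664 in replicate 3. Among the 29 lower genes the lowest value was in replicate 3 for 19. In the authors' deposited table, whose p-values are not adjusted, 254 of the 288 higher genes (88.2%) and 19 of the 29 lower genes had a p under 0.05. At that level the same table has 1095 higher and 483 lower among all autosomal rows. These p-values come from the same libraries and are not a separate check. The deposited ratios weigh naive replicates 1 and 2 as separate samples.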

How the data were processed

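The deposited file is 1 table in which the authors give a coverage signal for each gene row and library. The submitters' processing notes name bedtools and mm10. The sources used here do not give the aligner, annotation or strand setting, which leaves genes that overlap or run antisense uncertain. The authors' deposited table also holds group means, the ratio of those means and a p-value per row without adjustment, and only the p-values were counted here. Tested on the values, each signal is summed bases plus 1 base, rescaled, and 100% of values were whole within 1e-06 of a base. The added base was removed and columns were set to bp per Mb. Base sums are not read counts, so no count test was used. Chromosomes came from RefSeq GRCm38.p6 and GENCODE names, and 123 rows without one were left out.

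Limma 3.58.1 in R 4.3.3 with a variance trend tested rows with a mean of at least 1 on log2(value + 1), with Benjamini-Hochberg adjustment over 10779 rows, sex-linked ones included, at 0.05. In simulated data for this comparison with 10735 genes and a log2 SD of 0.5, 14% of 2-fold, 84% of 4-fold and 100% of 8-fold changes were called. Changes were simulated only in better covered genes. The real naive samples were a median of 1.06 log2 apart over tested rows, so these shares do not give the recovery in the real data. The members and the 35 gene lists (766 entries, 7 unmatched) were chosen with earlier results of these data known. Named genes are Hopx, Gas5, the 15 largest rises and falls among called genes without overlap and with a higher group mean of at least 5, leaving out clone names and small RNAs, and up to 4 called list members with the smallest p, or 2 with the highest mean where none passed. Any other gene was chosen after its values were seen. A few genes that these rules select are not reported here. Alternatives changed the scaling, filter, pseudocount, trend, samples in the fit, naive averaging, replicate block and each replicate.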

Additional observations from a re-analysis of the deposited data

Results flagged for a closer look

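Coverage of Y-linked genes, which the autosomal comparison leaves out, stood above the naive level in all 3 Hopx high libraries. Ddx3y, an RNA helicase, had a Hopx high mean of 39.38 bp per Mb, with 51.7, 35.7 and 30.7 in replicates 1, 2 and 3. Eif2s3y, a translation initiation factor subunit, had a mean of 24.36 and Kdm5d, a histone demethylase, of 22.15. Uty, a relative of the histone demethylase Utx, had a mean of 32.11. In naive these genes had at most 0.300, and Uty was listed at 0 in all 3 libraries. Xist, the RNA of the inactive X chromosome, had 89.1, 76.1 and 263 in naive and was listed at 0 in each Hopx high library. Of 341 sex-chromosome rows tested, 6 were called higher and 1 lower. The part of sex in the autosomal results was not tested, since every Hopx high library differs from every naive library in it.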

How the results depend on the processing

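Counts of higher and lower calls were 288 and 29. With no filter on low values they were 0 and 0, with a smallest adjusted p of 0.0867 and 1044 and 337 at an unadjusted p under 0.05. Lower calls were 96 with quantile normalization, 12 with the values as deposited, 8 with a pseudocount of 0.1, 53 in the fit to all 3 groups and 45 with naive replicates 1 and 2 as separate samples. A replicate block in these groups alone gave 36 and 4. With Hopx low in the same fit the block gave 266 and 23. The numbers were not taken as pairs: naive shares only 2 numbers with Hopx high, and same-numbered samples had r of 0.20 and 0.06 between deviations. Leaving out single replicates gave 0 to 2265 higher and 0 to 229 lower calls, both highest without naive replicate 3. Without Hopx high replicate 2 the counts were 102 and 6, without Hopx high replicate 3 they were 33 and 0, and without naive replicate 2 they were 208 and 12. Without naive replicates 1 and 2 they were 326 and 268. In that fit and the one without naive replicate 3 the lone naive sample is assumed to vary like Hopx high. The other settings gave counts within 1.5 times of these. The cause of these changes was not tested. Over named genes and alternatives, 1272 results stayed on their side of the threshold, 409 lost the call and 11 gained it. The sign changed 30 times, in 7 genes that were not called, and in 0 called genes. These were Ptprc (-1.74 to 1.74 over the alternatives), Prf1 (-1.17 to 2.25), Oas3 (-0.39 to 0.54), Cd8b1 (-0.18 to 0.37), Bop1 (-0.05 to 0.63), Zap70 (-0.46 to 0.02) and Gas5 (-2.58 to 0.03). List medians moved beyond the spread between Hopx high libraries in 84 cases and stayed within it in 593. Depth limits genes under about 1 bp per Mb in naive replicates 1 and 2.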

Other observations

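Called genes outside the gene lists numbered 169 higher and 20 lower, and those named here were chosen after their values were seen. Among them were ligands and receptors between cells. Cd70, the ligand of the costimulatory receptor CD27, was at 0 in each naive library, with 14.2, 9.89 and 11.6 bp per Mb in Hopx high (limma adjusted p = 0.000971). Csf1, the growth factor of macrophages, was also listed at 0 in naive and had 7.32, 2.65 and 8.30 in Hopx high (limma adjusted p = 0.0242). Adora2a, an adenosine receptor, had 67.5, 59.1 and 71.2 in naive and 356, 226 and 249 in Hopx high (log2 difference 2.00, limma adjusted p = 0.0472). Axl, a receptor tyrosine kinase, had 15.1, 11.0 and 13.1 in Hopx high and at most 1.04 in naive (3.29, limma adjusted p = 0.00626).

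Nuclear factors rose too. Zbtb32, a zinc finger repressor, had 1.15, 3.00 and 5.61 bp per Mb in naive and 110, 103 and 62.0 in Hopx high (log2 difference 4.32, limma adjusted p = 7.58e-06). Mybl2, the B-Myb factor of late cell cycle genes, had at most 1.74 in naive and 48.6, 36.6 and 38.3 in Hopx high (4.32, limma adjusted p = 7.64e-05). H2afx, a histone variant marked at DNA breaks, had 100, 136 and 201 in naive and 1205, 382 and 1439 in Hopx high (2.49, limma adjusted p = 0.00342). Among the falls were Ppp1r15a, a phosphatase subunit of the stress response, with 741, 910 and 444 in naive and 172, 113 and 52.5 in Hopx high (-2.57, limma adjusted p = 0.00254), and the kinase Sgk1, with 81.7, 82.7 and 55.3 against 13.4, 12.0 and 8.48 (-2.50, limma adjusted p = 0.0488). Scarna17, a small Cajal body RNA that the naming of genes left out, had 18923, 16308 and 4433 in naive and 408, 3751 and 4281 in Hopx high, so that naive replicate 3 lay close to Hopx high replicates 2 and 3.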
